A study of Mus musculus with 6 samples.

Results

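Voltage-gated potassium channel subunits were followed in messenger RNA of the nucleus accumbens core, the part of the ventral striatum that links reward to action. The 40 genes were taken by name, as every gene of the Kcna, Kcnb, Kcnc, Kcnd, Kcnf, Kcng, Kcnh, Kcnq, Kcns and Kcnv series among the 24532 genes of the table. Of these, 37 had at least 10 reads in 3 or more of the 6 libraries and were tested, and Kcna7, Kcna10 and Kcnv2 were not.

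The 6 samples came from wild-type male mice that the labels call adolescent, with postnatal days 35 to 55 given, 3 titled control and 3 titled ethanol. The labelled course was contextual fear conditioning, then ethanol in 6 intraperitoneal injections over 6 h (20% v/v in saline, the first at 1.8 g/kg and the other 5 at 1.2 g/kg), extinction of the fear in its context, and 27 days in which drinking was offered on every other day, with tissue taken 24 h after its end. The labels give the control and ethanol samples the same injections and the same drinking period. Whether the control mice shared either cannot be read from these identical entries. Each sample carries the same treatment entry (ethanol exposure). The groups therefore rest on the titles, and the sample descriptions and column headers name the same groups. What the control mice received by injection, the strain and whether each sample is a separate animal are not given in these sources, so p-values reflect only how these samples vary, and that variation may be technical.

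Voltage-gated potassium channels open when the membrane depolarises and carry the outward current that repolarises it, and they thereby set spike width, firing rate and the delay before the first spike. A channel is a ring of 4 subunits around 1 pore. The Kv1 to Kv4 families, encoded by Kcna, Kcnb, Kcnc and Kcnd, form the classical delayed rectifier and A-type channels. The Kv7 family (Kcnq) gives the M-current that muscarinic receptors suppress, the ether-a-go-go family (Kcnh, here called EAG) holds slower channels, and the subunits of Kcnf, Kcng, Kcns and Kcnv are electrically silent alone and join Kv2 subunits. In medium spiny neurons, the projection neurons of the striatum, Kv1, Kv4 and Kv7 currents delay and limit firing, and Kv3 channels let fast-spiking interneurons fire at high rates.

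The sequences below are coding stretches, inside the transcript, that 1 variant of Kcnq5 or Kcnh1 holds and another lacks, and they are shown because the estimated reads of these genes moved between variants from library to library, as described further on. They are read 5′ to 3′ on the strand of the gene from GENCODE M21 transcripts (GRCm38, the same assembly as mm10) that its metadata pair with the RefSeq transcripts of the table. Capitals mark the bases that the variant named second lacks, and the 15 bases on each side are shared by both variants.
Kcnq5 exon 10, in variant 1 and not in variant 2: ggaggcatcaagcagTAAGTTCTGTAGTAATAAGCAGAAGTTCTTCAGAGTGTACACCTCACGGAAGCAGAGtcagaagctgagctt
Kcnq5 exon 9, in variant 2 and not in variant 3: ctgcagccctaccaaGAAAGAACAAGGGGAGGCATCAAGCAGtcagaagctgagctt
Kcnh1 end of exon 6, in variant 1 and not in variant 2: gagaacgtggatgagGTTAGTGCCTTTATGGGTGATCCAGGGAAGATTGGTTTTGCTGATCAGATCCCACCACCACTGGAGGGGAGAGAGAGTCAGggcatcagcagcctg

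On the minus strand of chromosome 1, Kcnq5 exon 10 is 57 bases long (21461551 to 21461607) and exon 9 is 27 bases long (21466383 to 21466409). The stretch of Kcnh1 holds 81 bases on the plus strand of chromosome 1 (192277091 to 192277171). Kcnq5 variant 3 is 7608 bases long in the table and variant 2 is 6923, so they differ by more than exon 9. All 3 stretches are annotated as coding, and each length is a multiple of 3.

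Totals ran from 35898026 to 67399599 estimated reads per library, and the 3 reads that a count of 0 allows were worth 0.045 to 0.084 CPM (counts per 1e6 reads), for counting error only. Control 2 had reads for 15924 genes and the other 5 libraries for 17096 to 17707, and the first principal component, with 36.1% of the variance, set control 2 apart. Ethanol 2 differed from the others with transcript length, in classes chosen after the values had been seen. Among all tested genes whose main transcript is over 5000 bases, the median log2 deviation from the 6-library mean was -0.38 in ethanol 2, 0.19 in ethanol 1 and 0.23 in ethanol 3, and among those under 2000 bases it was 0.29, -0.17 and -0.16 in the same order. The defining markers of the labelled tissue were present in every library, with the dopamine receptor genes Drd1 at 26.9 to 58.8 CPM and Drd2 at 20.9 to 55.2 CPM, and Ppp1r1b, the gene of the phosphoprotein DARPP-32, at 486 to 1156 CPM.

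**Figure D1:**
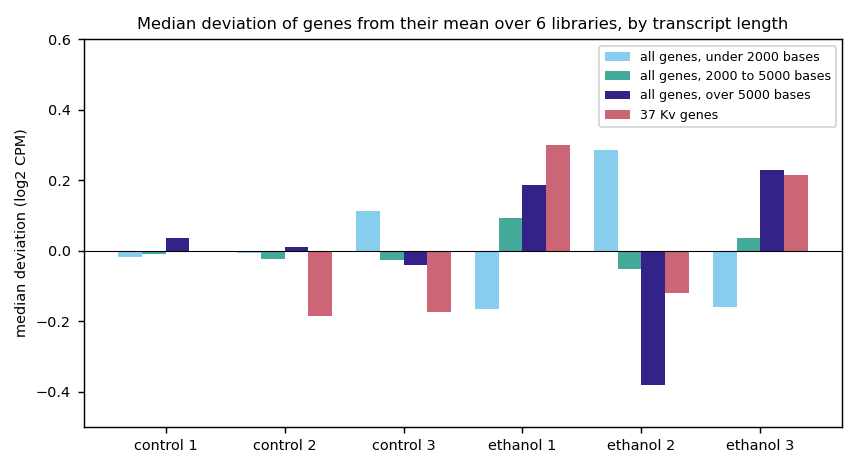
Median deviation of genes from their own mean over the 6 libraries (log2 CPM, vertical axis) in each library, for all tested genes in 3 classes of main transcript length and for the 37 voltage-gated potassium channel (Kv) genes. In ethanol 2 genes over 5000 bases lie at -0.38 and the Kv genes at -0.12, while both lie above 0 in ethanol 1 and ethanol 3.

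Kv3 genes were the most abundant family per length. Summed over the 4 Kv3 genes, the deposited FPKM (fragments per kilobase of transcript, scaled to library size) averaged 92.7 over the 6 libraries, which was 31.8% of the sum over all 40 genes. Kv1 genes followed with 61.1, Kv7 genes with 41.3, the EAG family with 39.9, the silent subunits with 29.4, Kv4 genes with 19.6 and Kv2 genes with 7.77 FPKM. The sum over all 40 genes was 299.7, 274 and 286 FPKM in control 1 to control 3 (mean 286 ± 13.04, SD, n = 3) and 346, 243 and 302 FPKM in ethanol 1 to ethanol 3 (297 ± 51.4, SD, n = 3). Ethanol 1 was thus the highest library and ethanol 2 the lowest, with all 3 controls between them.

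Kcnc1, which encodes Kv3.1 of fast-spiking neurons, was the most abundant member at 41.9 FPKM on average. Its level was 43.4, 41.1 and 49.2 FPKM in control 1 to control 3 and 50.4, 30.1 and 37.4 FPKM in ethanol 1 to ethanol 3. High levels were also found for Kcnc4 (25.9 FPKM), which encodes Kv3.4, Kcna6 (25.7 FPKM), which encodes Kv1.6, and Kcnh2 (20.8 FPKM), the gene of the ERG1 channel. The axonal subunit genes Kcna2 and Kcna1 stood close together at 13.4 and 13.1 FPKM. In the order of all 40 genes by mean level the ranges of every neighbouring pair overlapped, so neighbours did not differ beyond their spread over libraries. Kcnd2, of the dendritic A-type channel Kv4.2, averaged 10.6 FPKM and Kcnf1, a silent subunit gene, 9.94 FPKM. At the low end stood Kcnq1, Kcna10 and Kcng3, at 0.12, 0.060 and 0.058 FPKM. Kcnq1 lies in a locus with an antisense RNA, and since strand use in the counting is not given, its reads cannot be told apart from that partner's.

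The filter separated genes of similar depth. Kcna10, just outside, had 11, 0 and 7 reads in the controls and 6, 9 and 7 in the ethanol libraries, and Kcng3, just inside, had 13, 0 and 0 and then 37, 6 and 20. Kcna7 had 6 reads, all in ethanol 1, and Kcnv2 had 4, all in ethanol 3.

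**Figure D2:**
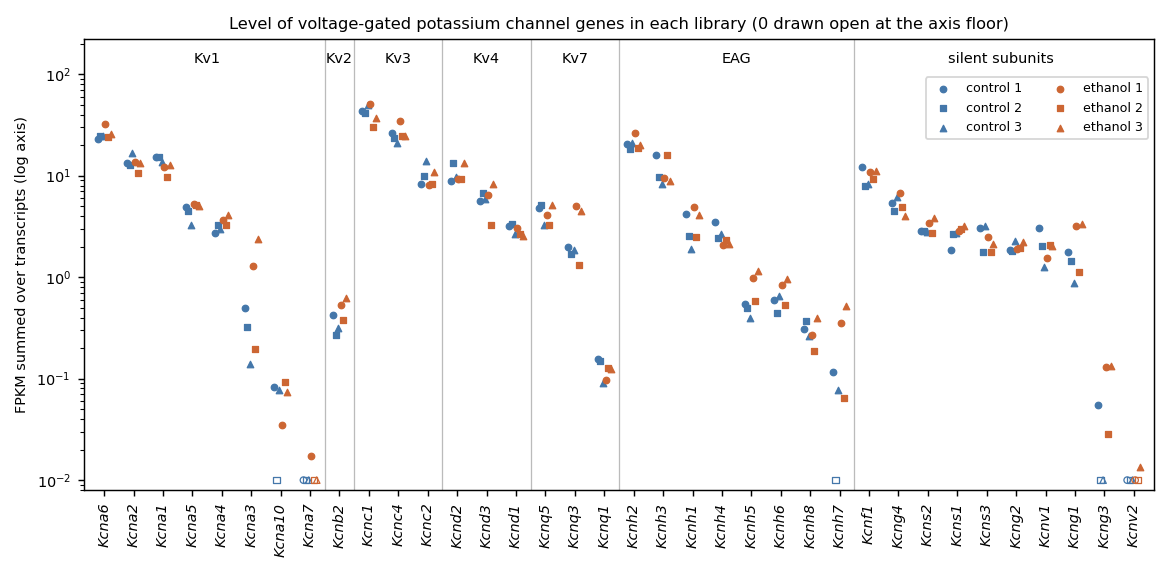
FPKM summed over the transcripts of each gene (vertical log axis) for the channel genes described here, grouped by family and ordered by mean level, with 1 point per library. Kcnc1 is highest at 41.9 FPKM on average, and the ethanol 1 and ethanol 3 points lie far above the others for Kcna3 and Kcnq3.

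The comparison of the ethanol with the control samples asked which of these channel genes differed in the accumbens core after the drinking period. By edgeR's quasi-likelihood test adjusted over the 15937 genes tested, 0 of the 37 channel genes passed a threshold of 0.05, against a background of 0% of all genes. The smallest adjusted p among them was 0.42. An unadjusted p under 0.05 was found for 7 of the 37 (18.9%), all higher in ethanol, where 10.6% of all genes reached it in either direction and 5.29% as higher. DESeq2 and limma-voom also called 0 of them. At an unadjusted p under 0.05 these 2 methods had 6 and 3 of the 37, against 1926 and 1773 of the 15937 genes. The groups did not overlap in 7 of the 37 (18.9%), close to the 17.6% of all genes. In 6 of them the ethanol libraries lay above the controls and in 1 below, against 9.31% and 8.33% of all genes. The log2 fold change was above 0 in 26 of the 37, with a median of 0.24, against 52.7% of all genes and a median of 0.02. That number ran from 21 to 29 over the alternative fits, and with scaling to total counts alone it was 22 of 37, against 42.0% of all genes.

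**Figure D3:**
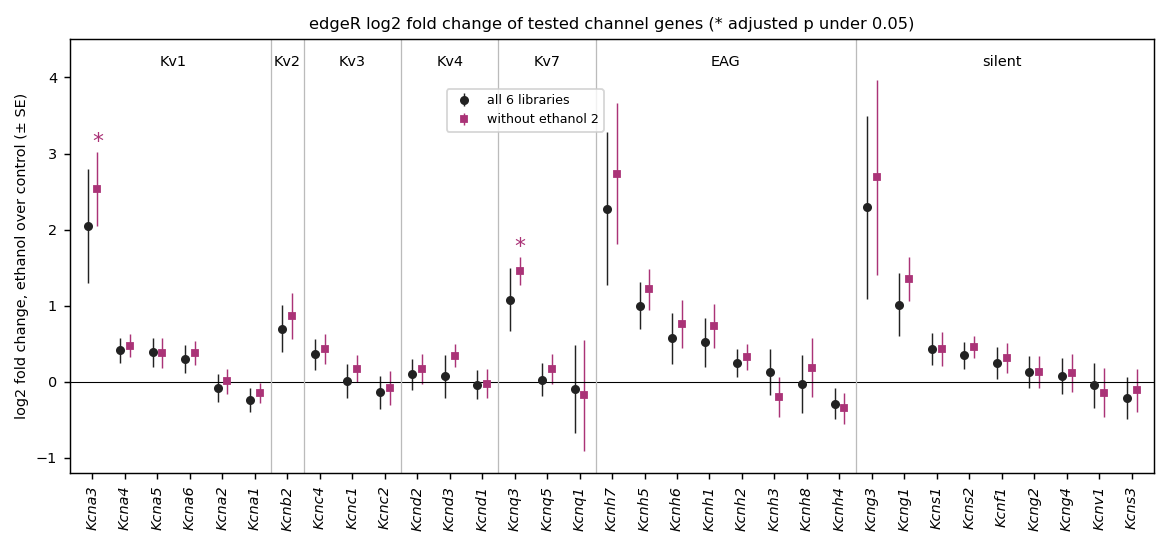
log2 fold change of ethanol over control (vertical axis, edgeR, bars are ± SE) for the tested channel genes described here, by family, from all 6 libraries (circles) and without ethanol 2 (squares). No gene shown passes with all 6 libraries, and Kcna3 and Kcnq3 (stars) pass without ethanol 2.

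Among the Kv7 genes, which carry the M-current, Kcnq3 had the largest fold change, higher in ethanol. Kcnq3 encodes Kv7.3, a subunit of most neuronal M-channels. It stood at 6.73, 5.69 and 6.29 CPM in control 1 to control 3 and at 19.0, 4.87 and 15.7 CPM in ethanol 1 to ethanol 3. Ethanol 1 and ethanol 3 thus lay far above the 3 controls, and ethanol 2 lay below all of them. The group means were 6.24 ± 0.52 and 13.2 ± 7.39 CPM (SD, n = 3). Over all libraries the log2 fold change was 1.08 (SE 0.41, adjusted p = 0.45 by edgeR). Without ethanol 2 it was 1.46 (SE 0.18) and passed by edgeR (adjusted p = 0.012), and leaving out each of the other samples in turn gave 0.72 to 1.14 with no pass. Kcnq3 covers 65994915 to 66286224 on chromosome 15 in mm10.

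Kcnq5, another M-channel subunit gene of the brain, had 39.7, 41.7 and 27.0 CPM in control and 38.3, 28.9 and 43.2 CPM in ethanol, with overlapping groups and a log2 fold change of 0.03 (SE 0.22). Kcnq1, best known from heart and epithelia, had a log2 fold change of -0.10 (SE 0.58).

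Within the Kv1 family, Kcna3 had the largest fold change from a very low level. Kv1.3, its product, is best known from lymphocytes and microglia and also occurs in neurons. The gene had 67, 29 and 12 reads in the controls and 211, 21 and 208 in ethanol 1 to ethanol 3, or 1.16, 0.75 and 0.33 CPM against 3.36, 0.51 and 5.58 CPM. Ethanol 1 and ethanol 3 were high, as for Kcnq3, and ethanol 2 lay within the range of the controls. The log2 fold change was 2.05 (SE 0.75, adjusted p = 0.44 by edgeR), and without ethanol 2 it was 2.53 (SE 0.49) and passed by edgeR (adjusted p = 0.045). Without ethanol 3, its highest library, it was 1.37 (SE 0.83, adjusted p = 0.47 by edgeR), and on log2(FPKM + 1), a scale that understates low genes, 0.68. Microglial markers moved differently, with 5 of 6 higher and a summed level of 357 to 454 CPM in control and 377 to 583 CPM in ethanol, where ethanol 2 was highest, and their part in the Kcna3 values was not tested.

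In Kcna4, Kcna5 and Kcna6, the 3 ethanol libraries all lay above the 3 controls in CPM. Kcna4, the gene of the A-type channel Kv1.4, had 15.6, 18.2 and 17.1 CPM in control and 23.4, 20.1 and 24.1 CPM in ethanol (log2 fold change 0.41, SE 0.16, adjusted p = 0.45 by edgeR). Kcna5 had 17.1, 15.8 and 11.6 CPM and then 20.8, 19.5 and 18.0 CPM (log2 fold change 0.39, SE 0.19). For Kcna6 the values were 158, 167 and 169 CPM and then 251, 176 and 179 CPM (log2 fold change 0.30, SE 0.18). None of the 3 passed. In deposited FPKM Kcna4 and Kcna5 stayed separate, while the groups of Kcna6 overlapped, with 23.8 FPKM in ethanol 2 against 23.1, 24.7 and 24.5 FPKM in control. Kcna1 was the 1 member with all ethanol libraries below all controls.

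Kcna1 encodes Kv1.1, which dampens excitability in axons. It had 159, 159 and 144 CPM in control and 143, 111 and 137 CPM in ethanol (log2 fold change -0.24, SE 0.16, adjusted p = 0.60 by edgeR). Ethanol 1 lay barely under control 3, so the groups only just separated. Kcna1, Kcna5 and Kcna6 lie next to each other on chromosome 6, from 126532551 to 126740674, and their log2 fold changes had opposite signs. Kcna2, which encodes Kv1.2 of the slowly inactivating current of medium spiny neurons, had 179, 172 and 231 CPM in control and 209, 155 and 185 CPM in ethanol, with overlapping groups and a log2 fold change of -0.09 (SE 0.18).

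**Figure D4:**
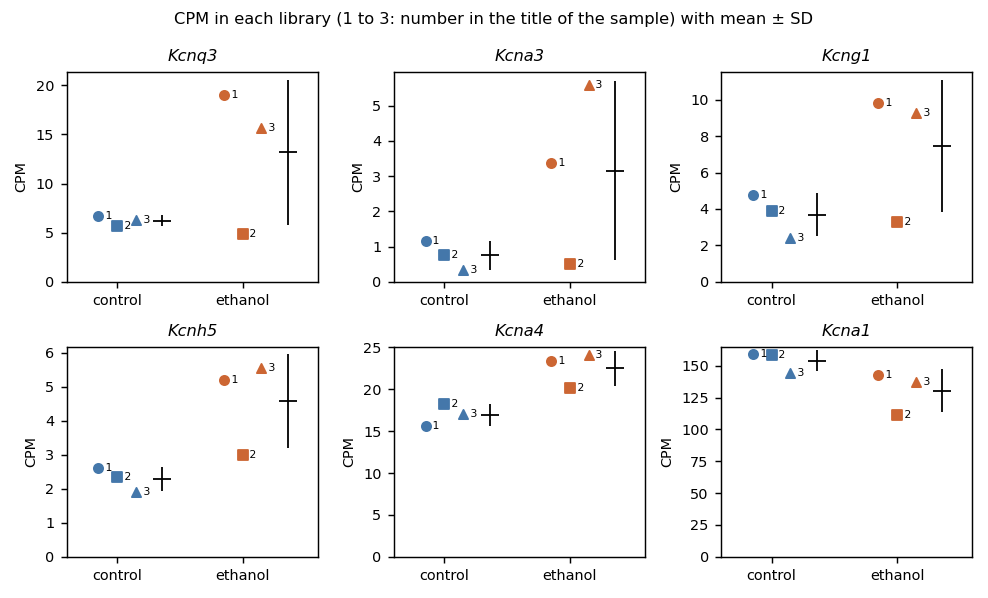
CPM (vertical axis from 0) of 6 genes in each library, with mean ± SD of the 3 libraries of a group beside the points. Kcnq3, Kcna3 and Kcng1 are high in ethanol 1 and ethanol 3 alone, whereas Kcnh5 and Kcna4 are higher and Kcna1 lower in all 3 ethanol libraries.

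Kcnh5 had the smallest unadjusted p of the channel genes. It belongs to the EAG family and encodes Kv10.2. It had 2.62, 2.34 and 1.91 CPM in control and 5.21, 2.995 and 5.55 CPM in ethanol, so that all ethanol libraries lay above all controls, with ethanol 2 the nearest to them. The group means were 2.29 ± 0.36 and 4.59 ± 1.39 CPM (SD, n = 3). The log2 fold change was 0.999 (SE 0.31, adjusted p = 0.42 by edgeR), and 1.22 without ethanol 2 (adjusted p = 0.062 by edgeR). Kcnh7, which encodes the ERG3 channel, had 31, 0 and 13 reads in control and 110, 13 and 89 in ethanol, again with ethanol 1 and ethanol 3 high. Its log2 fold change of 2.27 (SE 1.01, adjusted p = 0.47 by edgeR) rests on few reads, and was 3.06 without control 1 and 1.71 without control 2.

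The abundant EAG member Kcnh2 had 96.3, 89.7 and 102 CPM in control and 142, 98.8 and 99.8 CPM in ethanol, so that ethanol 1 alone stood above the controls. Kcnh1, whose product Kv10.1 is the founding EAG channel in mammals, had a log2 fold change of 0.52 (SE 0.33), Kcnh6 (ERG2) one of 0.57 (SE 0.33) and Kcnh8 one of -0.03 (SE 0.39). Kcnh4 was the family's lowest with -0.29 (SE 0.20). Kcnh3, a forebrain channel gene, had a log2 fold change of 0.13 (SE 0.30) with its 2 highest values, 67.6 and 72.4 CPM, in control 1 and ethanol 2.

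None of the 4 Kv3 genes separated by group. Kcnc1 had 243, 227 and 273 CPM in control and 334, 183 and 229 CPM in ethanol, so that the spread among the ethanol libraries exceeded any shift between the groups (log2 fold change 0.0059, SE 0.22). Kcnc4 had 93.8, 82.2 and 74.9 CPM in control and 138, 94.6 and 88.6 CPM in ethanol (log2 fold change 0.36, SE 0.20, adjusted p = 0.55 by edgeR). Kcnc2, of Kv3.2, had a log2 fold change of -0.14 (SE 0.22). Pvalb, the marker of fast-spiking interneurons, had 118, 174 and 332 CPM in control and 122, 237 and 122 CPM in ethanol. The part of these interneurons in the Kv3 values was not tested.

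Of the Kv2 family of delayed rectifiers, Kcnb2 (Kv2.2) had 2.62, 1.69 and 2.00 CPM in control and 3.76, 2.53 and 3.97 CPM in ethanol. Ethanol 1 and ethanol 3 lay above every control and ethanol 2 did not. Its log2 fold change was 0.70 (SE 0.31, adjusted p = 0.47 by edgeR). The Kv4 genes of the A-type current differed little between the groups. Kcnd2 had 47.6, 69.6 and 52.5 CPM in control and 55.2, 53.2 and 72.9 CPM in ethanol (log2 fold change 0.095, SE 0.20), and Kcnd3 and Kcnd1 had 0.07 (SE 0.28) and -0.04 (SE 0.19).

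Among the silent subunits, Kcng1 was the 1 gene with an unadjusted p under 0.05. It had 4.77, 3.90 and 2.41 CPM in control and 9.82, 3.29 and 9.28 CPM in ethanol, so that ethanol 1 and ethanol 3 were high and ethanol 2 lay among the controls. The log2 fold change was 1.01 (SE 0.42, adjusted p = 0.45 by edgeR) and 1.35 without ethanol 2 (adjusted p = 0.059 by edgeR). Kcng3 had the largest log2 fold change of the silent subunits, 2.29 (SE 1.20), from at most 37 reads in a library. Kcns1 and Kcns2 were the silent subunits whose groups did not overlap. Kcns1 had 5.83, 8.31 and 8.80 CPM in control and 10.3, 10.2 and 10.4 CPM in ethanol (log2 fold change 0.43, SE 0.22), and Kcns2 had 18.1, 17.8 and 17.8 CPM and then 24.5, 18.7 and 25.1 CPM (0.35, SE 0.17). In deposited FPKM the groups of Kcns2 overlapped, with 2.70 in ethanol 2 under every control. Kcnf1 had 68.9, 43.4 and 46.9 CPM in control and 68.8, 55.8 and 64.2 CPM in ethanol, with overlapping groups (0.25, SE 0.21). Log2 fold changes of Kcng2, Kcng4, Kcns3 and Kcnv1 lay from -0.21 to 0.13.

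The order of the ethanol libraries was shared by many members. Ethanol 2 was the lowest of the 3 in 29 of the 37 channel genes (78.4%), against 39.5% of all genes. Ethanol 1 and ethanol 3 lay above every control while ethanol 2 did not in 10 of the 37 (27.0%), against 13.4% of all genes. Kcna3, Kcnb2, Kcnd3, Kcng1, Kcng3, Kcnh6, Kcnh7 and Kcnq3 were among them. Both counts were chosen after the values had been seen, and neither was set against genes of like transcript length. Without ethanol 2, edgeR passed 2 of the 37 (Kcnq3 and Kcna3, both higher in ethanol) against 1.38% of all genes in either direction and 1.31% as higher, and 14 had an unadjusted p under 0.05 (37.8%, against 22.9%).

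Transcript length was examined beside these counts, as the median log2 deviation in ethanol 1, ethanol 2 and ethanol 3. For the 24 channel genes of 2000 to 5000 bases it was 0.28, -0.07 and 0.15. All genes of that length had 0.09, -0.05 and 0.04. For the 12 channel genes over 5000 bases it was 0.38, -0.30 and 0.24, against 0.19, -0.38 and 0.23 for all genes of that length. The part of length in the 2 counts was not tested. When a trend over transcript length was removed from every library, an alternative chosen after seeing the data, edgeR passed 0 of the 37 with all 6 libraries. Without ethanol 2 it then passed Kcnq3, with a log2 fold change of 1.43 (SE 0.17, adjusted p = 0.024), while Kcna3 had 2.60 (SE 0.51, adjusted p = 0.084). Markers of other cells also differed among these libraries. The 6 markers of septum, basal forebrain and thalamus (3 higher, 3 lower) summed to 158 to 214 CPM in control and to 184, 108 and 270 CPM in ethanol 1 to ethanol 3. The 15 medium spiny neuron markers, 14 of them higher, summed to 2360 to 2747 CPM in control and to 3091, 4504 and 2580 CPM in ethanol 1 to ethanol 3. Single markers of this list differed in that order. Penk had 605, 1423 and 532 CPM in ethanol 1 to ethanol 3, and Adcy5 had 465, 307 and 357 CPM. The part of either list in the channel values was not tested, and in bulk tissue fewer cells of a type and less RNA per cell cannot be told apart. None of these markers was at 0 in any library.

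Cortical glutamatergic markers, whose neurons also express Kcnh3 and Kcnv1, were lower in 8 of 10. They summed to 189 to 441 CPM in control and to 159 to 190 CPM in ethanol, with control 1 highest, and Emx1 had 0 reads in control 2. Slc17a7, the vesicular glutamate transporter gene, had 289, 58.2 and 102 CPM in control and 24.7, 9.42 and 55.9 CPM in ethanol. Kcnv1 was highest in control 1 as well, at 15.9 CPM against 6.70 to 11.9 CPM in the other 5 libraries. Kcnh3 was high in control 1 and also in ethanol 2, where Slc17a7 was lowest. The part of cortical RNA in these values was not tested. The choroid plexus marker Ttr reached 394 CPM in control 3 and only 0.73 to 4.63 CPM elsewhere, and Kcne2, a Kv7 partner gene of that tissue, had 52 of its 62 reads in control 3. Astrocyte markers (8 of 9 with a positive log2 fold change) summed to 3304 to 3642 CPM in control. In ethanol 1 to ethanol 3 they summed to 4733, 3873 and 3931 CPM, so ethanol 2 and ethanol 3 were nearly equal. Single markers differed in which of these 2 libraries was lower, with Slc1a3 at 392 and 531 CPM and Aldoc at 1652 and 1319 CPM. The part of astrocyte RNA in the channel values was not tested.

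The partner genes of the channels were not called either. Of 15 auxiliary subunit genes in the table, 12 were tested, of which 7 had a positive and 5 a negative log2 fold change, with a median of 0.09, and 0 passed by edgeR. Dpp6, an auxiliary subunit gene of Kv4 channels, had 279, 288 and 266 CPM in control and 528, 304 and 381 CPM in ethanol. All ethanol libraries were above the controls, and the log2 fold change was 0.54 (SE 0.21, adjusted p = 0.45 by edgeR). Kcne4, which encodes a small inhibitory partner of Kv1 and Kv7 channels, had 1.63, 0.96 and 3.55 CPM and then 0.99, 0.71 and 0.91 CPM (log2 fold change -1.23, SE 0.51), with control 3 the highest. Amigo1, a Kv2 partner gene, had 0.32 (SE 0.19) and Kcnip4, a Kv4 partner gene, -0.38 (SE 0.23).

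Of 13 genes that anchor or cluster Kv channels, 5 had a positive and 8 a negative log2 fold change, with a median of -0.06, and 0 passed. Cntnap2, whose product holds Kv1 channels beside the nodes of Ranvier, had 73.7, 85.5 and 63.8 CPM in control and 136, 89.7 and 111 CPM in ethanol. Its groups did not overlap, and the log2 fold change was 0.60 (SE 0.20, adjusted p = 0.44 by edgeR). Ank3, the ankyrin gene of the axon initial segment, did not overlap in the other direction, with 266, 259 and 279.8 CPM in control and 247, 162 and 238 CPM in ethanol (log2 fold change -0.31, SE 0.19). The log2 fold change of the scaffold gene Dlg2 was 0.38 (SE 0.23), and that of Sptbn4 was -0.27 (SE 0.18). Among 9 genes that regulate the M-current, 7 were positive with a median of 0.25 and 0 passed. They were led by Calm3, a calmodulin gene, at 0.26 (SE 0.15), the muscarinic receptor gene Chrm1 at 0.31 (SE 0.22), and the genes of the G protein and phospholipase behind that receptor, Gnaq at 0.27 (SE 0.19) and Plcb1 at 0.28 (SE 0.20).

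Below the level of genes, 9 of the 40 had 2 or more transcripts in the table. Of 50 transcripts of the channel genes tested among 22810, 0 passed by edgeR (smallest adjusted p 0.75), with 1 at an unadjusted p under 0.05 against 6.51% of all transcripts. It was the single transcript of Kcnh5. The variant shares rest on the authors' estimated values per transcript, and how reads common to variants were assigned is not given in these sources.

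In these estimated values Kcnq5 changed variant completely between libraries, in an order that did not follow the groups. Reads over its single exons were not examined, so the change may lie in how reads were assigned. Variant 1, which holds exon 10, took 100% of the Kcnq5 FPKM in control 2, control 3 and ethanol 2, and 0 to 0.19% in control 1, ethanol 1 and ethanol 3. In those 3 libraries variant 2 took 89.9%, 82.6% and 83.4%, and variant 3, which lacks exon 9 as well, took the rest. Kcnq5 variants differ in the intracellular C-terminal part of the channel. The groups overlapped in the summed Kcnq5 level, which lay from 27.0 to 43.2 CPM over the 6 libraries.

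In Kcnh1 the estimated variant shares separated the groups. As for Kcnq5, reads over single exons were not examined, so the separation may lie in how reads were assigned. Variant 2, which lacks the end of exon 6 and so has the shorter linker between the third and the fourth membrane segment, took 20.9%, 0% and 0% of the gene's FPKM in control and 55.9%, 50.8% and 40.5% in ethanol. All 3 ethanol libraries were above all 3 controls. The transcript test gave a log2 fold change of 2.80 (SE 2.30, adjusted p = 0.83 by edgeR), with 427, 0 and 0 reads in control and 1616, 473 and 531 in ethanol. The gene was singled out after its values had been seen, among 9 genes with variants.

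In Kcnc1, variant 1 was the main form everywhere, and variant 2, with the longer transcript of 7788 bases, took 13.2%, 12.3% and 10.3% in control and 20.1%, 13.1% and 22.0% in ethanol. The 2 highest libraries were again ethanol 1 and ethanol 3. Kcnh2 variant 1, the full-length form, took 81.6%, 100% and 83.4% in control and 90.7%, 95.6% and 92.9% in ethanol. Kcnd3, Kcns2 and Kcns3 were each made up of 1 variant by at least 86.5% in every library.

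**Figure D5:**
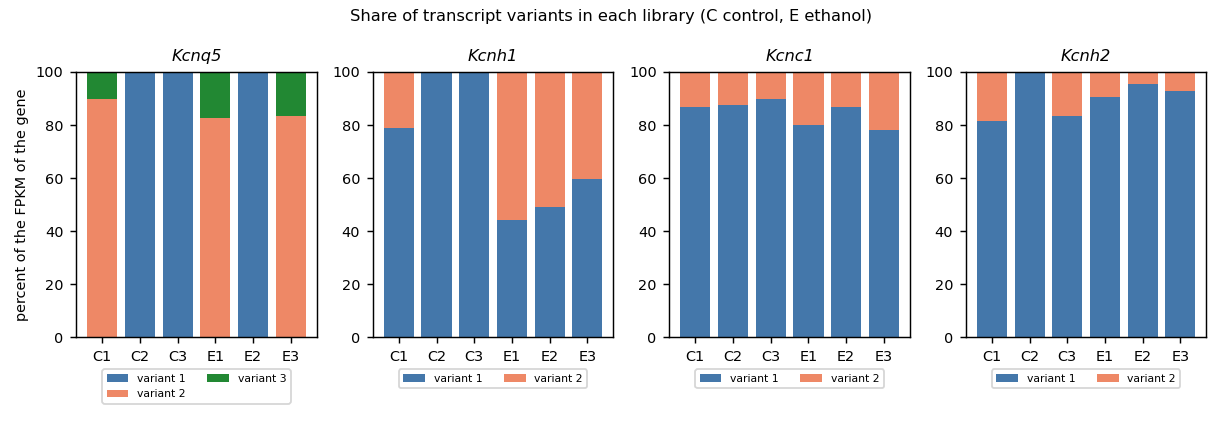
Percent of the FPKM of a gene (vertical axis) in each transcript variant, in control (C1 to C3) and ethanol (E1 to E3) libraries, for 4 genes. Kcnq5 is all variant 1 in C2, C3 and E2, and Kcnh1 variant 2 takes at least 40.5% in every ethanol library and at most 20.9% in a control.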

How the data were processed

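The authors deposited 1 table with a row per RefSeq transcript (36780 rows) and, for each of the 6 samples, an FPKM value and an estimated read count, as the headers name them. Build mm10 and the tool bcl2fastq come from the submitters' processing notes, and which aligner and counter the authors ran is not given in these sources. Deposited counts equalled FPKM times length times library size rounded up, within 0.05 reads, for 100% of transcripts checked, so they are estimated counts, used as whole numbers.

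Counts were summed to genes by gene identifier (10 identifiers carried 2 symbols). Genes with at least 10 reads in 3 or more libraries (15937) were scaled by TMM and compared with the quasi-likelihood test of edgeR 4.0.16 in R 4.3.3, two-sided, group as the only term, with Benjamini-Hochberg adjustment over all genes and a threshold of 0.05. CPM refer to the TMM-scaled library, and the SE is the log2 fold change over the square root of F. Levels between genes use FPKM summed per gene. DESeq2 1.42.0, limma 3.58.1 and fits without each sample were alternatives.

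Members with values in every sample were chosen by adjusted p, by the 10 smallest unadjusted p, by groups that did not overlap, by the 8 highest FPKM, or as the highest of their family, and of each partner list the 4 smallest p were named. Values of Kcnq5 (for its variants), Kcng3 and Kcna10 (beside the filter), Kcna7 and Kcnv2 were added outside this rule, after they had been seen. The members and lists were chosen with earlier results of these data known. Figures were drawn with matplotlib 3.10.9. Values of some channel genes are not reported here; they stay in the counts and sums.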

Additional observations from a re-analysis of the deposited data

How the results depend on the processing

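With all 6 libraries 0 channel genes, 0 partner genes and 0 channel transcripts passed in each alternative fit run on them. The count over all genes was 145 with DESeq2. Leaving out 1 sample in turn gave 0 to 220 genes, 0 to 2 channel genes and 0 partner genes or channel transcripts. The 220 genes and the 2 channel genes came without ethanol 2, and 3 genes came without control 1. With the length trend removed and ethanol 2 left out there were 86 genes and 1 channel gene. Kcnq3 and Kcna3 were the channel genes that passed, at 1.46 and 2.53 without ethanol 2, and Kcnq3 at 1.43 with the length trend also removed.

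The log2 fold change of Kcnc1 changed sign from 0.0059 to -0.00022 with DESeq2, -0.035 with limma-voom, -0.024 with sample weights, -0.00021 with RLE scaling, -0.083 with total counts, -0.036 with upper quartile scaling, -0.21 on both FPKM scales and -0.053 with the length trend removed. Kcnd2 changed to -0.0090 and -0.0082 on log2(FPKM + 0.1) and log2(FPKM + 1), and Kcna2 to 0.0038 with the length trend removed. Without 1 sample in turn Kcnc1 lay from -0.27 to 0.17, Kcna2 from -0.19 to 0.052 and Kcnd2 from -0.062 to 0.27. The other channel genes named by the rule and described here kept their sign throughout. On log2(FPKM + 0.1) the median over all genes was -0.09 instead of 0.02, and 21 of the 37 channel genes were above 0, against 37.8% of all genes.

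The replicate numbers did not pair the samples (correlations of deviations 0.14, -0.02 and -0.02). With the replicate block 0 channel genes and 0 of their transcripts passed, and Kcnc1 was at -0.037. Ranked by the most abundant transcript alone, 20 of the 40 genes kept their rank in level. Depth limits genes such as Kcnh7 and Kcng3, whose fold changes rest on few reads.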
